A study of Homo sapiens with 8 samples.

Results

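The genes described here encode proteins of iron uptake, export and storage: SLC40A1, TFRC, TFR2, CP, FTL, SLC11A2, STEAP3, ACO1, IREB2 and TMPRSS6. They were found by symbol among probe sets that the platform annotation pairs with exactly 1 gene. Of the 10 listed genes 9 were found, each with 1 probe set, among 18404 genes tested, and IREB2 was not analysed here. Expression was measured on 8 single-channel arrays in HepG2, an established human liver tumour line that keeps many hepatocyte functions. The untreated group is 4 cultures kept in medium alone. The H2O2 group is 4 cultures exposed to 0.5 mM hydrogen peroxide for 60 minutes, the study's way to induce senescence, a lasting arrest of cell division. All cultures grew in the same serum-containing medium with antibiotics, and the labels give 5 days between washing and the tests for a senescent phenotype, with no separate time for RNA. All 8 come from 1 cell line, and the 4 of each condition are described as biological replicates.

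Iron travels in plasma bound to transferrin, which cells take up through transferrin receptors. In the endosome a reductase turns ferric into ferrous iron, a transporter moves it to the cytosol, and what is not used is stored in ferritin or leaves through ferroportin. Iron regulatory proteins bind a hairpin, the iron responsive element, in the transcripts of several of these genes, blocking translation when it lies before the coding sequence and stabilising the transcript when it lies after it. Hepatocytes store iron, secrete transferrin and ceruloplasmin, and make hepcidin, the hormone that removes ferroportin from the cell surface.

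The hairpin loop can be seen at the start of the ferritin light chain transcript. The loop was searched as CNNNNNCAGTGN, an unpaired C, 5 bases of stem and the loop itself, on the transcribed strand of the first 50 transcribed bases in RefSeq's promoter table. These letters stood in 1.67% of 35116 such windows, so a match is only a description. Among the 7 described genes with an entry, FTL had it, with the loop at bases 39 to 44 of the transcript. Elements further along a transcript or after its coding sequence could not be found in these windows, so the other genes may hold one there. ALAS2, the erythroid enzyme of heme synthesis, is shown beside it because its element is a textbook example. The 6 loop bases are in capitals, and the sites lie at chr19:48965329-48965358 on the plus strand (FTL) and chrX:55030943-55030972 on the minus strand (ALAS2) of GRCh38.p14.
FTL: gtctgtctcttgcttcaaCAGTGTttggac
ALAS2: tcattcgttcgtcctCAGTGCagggcaaca

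In cells exposed to H2O2, the transcript of the iron exporter ferroportin (SLC40A1) was 2.51-fold higher and that of the ferroxidase ceruloplasmin (CP) 3.04-fold lower. The endosomal reductase gene STEAP3 also rose, whereas both transferrin receptor genes, the iron transporter gene SLC11A2, the iron regulatory protein gene ACO1 and the protease gene TMPRSS6 fell. The ferritin light chain gene FTL did not pass the test. In all, 2 of the 9 measured genes rose and 6 fell at an adjusted p under 0.05. Across all genes, 19.2% rose and 14.8% fell, 34% together. In 8 of the 9 the groups did not overlap, as in 33.7% of all genes. The median difference of the 9 was -0.31 and that of all genes -0.022, and the median absolute differences were 0.35 and 0.14. Levels below are log2 expression values, means carry their SD and n = 4 arrays per group, differences are those of H2O2 from untreated cells, with a standard error, and adjusted p-values are limma's with Benjamini-Hochberg adjustment over all genes. RNA came from whole cultures, in which fewer cells with a transcript and less of it per cell cannot be told apart.

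**Figure D1:**
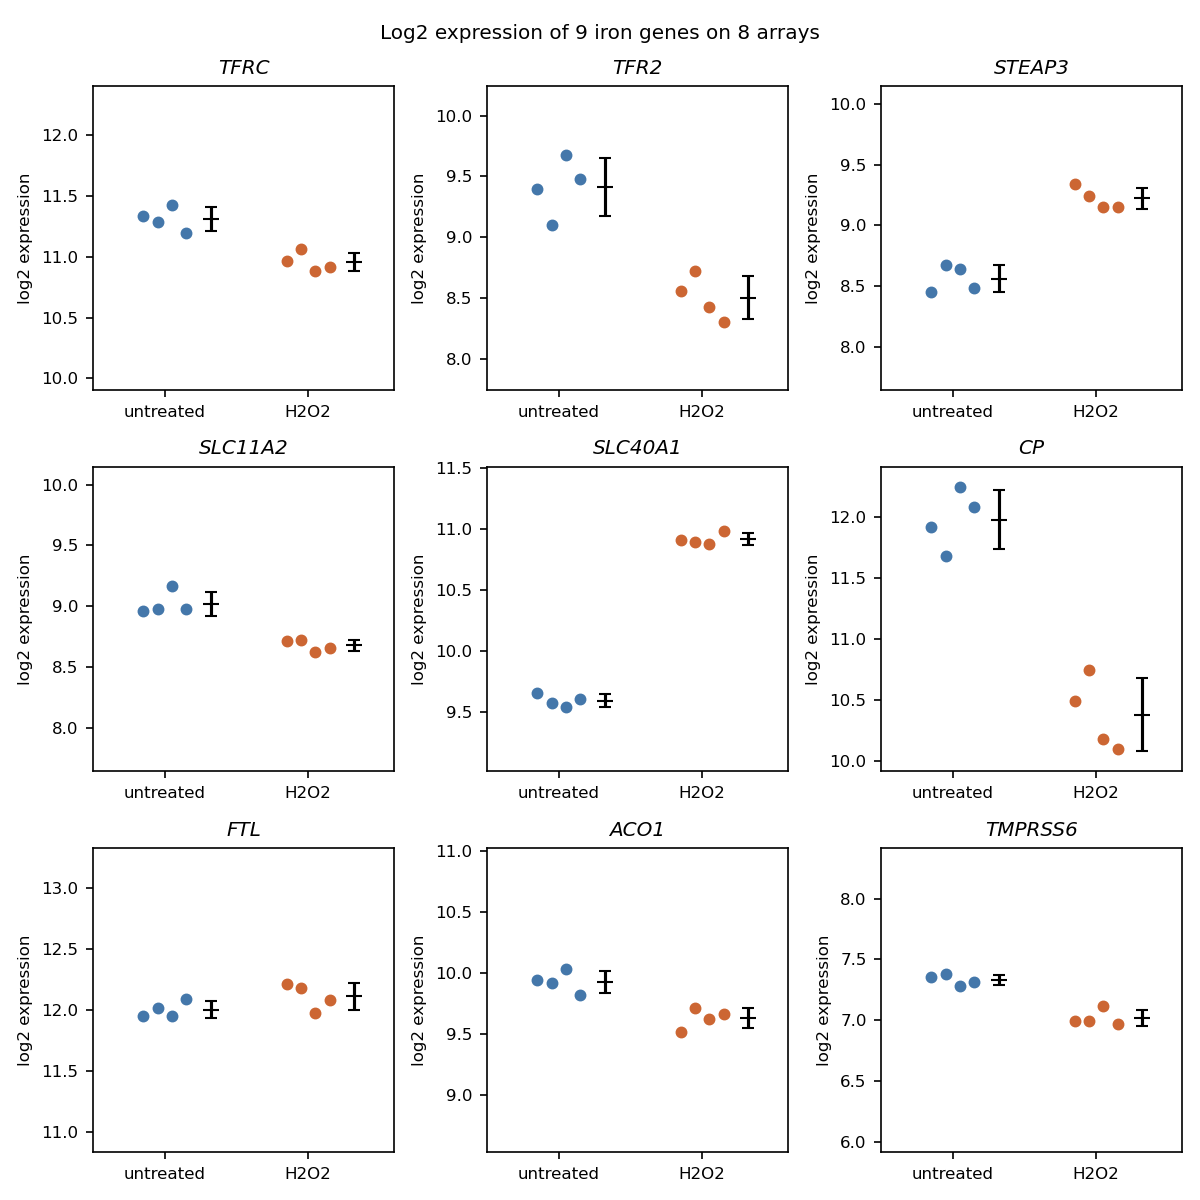
Log2 expression (y axis) of the 9 iron genes in untreated and H2O2 cultures (x axis), with 1 point per array and a black bar for mean ± SD, n = 4. Every panel spans the same height on the log2 scale but starts at a different level. The groups are apart in every panel except that of FTL, and lie farthest apart for CP and SLC40A1.

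TFRC encodes the transferrin receptor present on most dividing cells. Untreated replicates 1 to 4 read 11.33, 11.28, 11.42 and 11.20 on the log2 scale, and the treated replicates, in the same order, 10.96, 11.06, 10.88 and 10.92. Every treated array lay below every untreated one. The fall was 1.28-fold (log2 difference -0.35 ± 0.072, adjusted p = 0.00153).

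TFR2 encodes the second receptor, which is made mainly in liver and erythroid cells and takes part in sensing transferrin iron. Its log2 level was 9.40, 9.10, 9.68 and 9.48 in untreated replicates 1 to 4, against 8.56, 8.72, 8.43 and 8.31 in the treated ones. The groups did not overlap, although TFR2 spread more within each group than TFRC. It fell from 9.41 ± 0.24 to 8.50 ± 0.18, or 1.88-fold (log2 difference -0.91 ± 0.12, adjusted p = 3.28e-05), and held rank 272 among all genes ordered by their fall.

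The change of the receptors was compared directly, array by array, as the log2 value of TFR2 minus that of TFRC. It moved from -1.90 ± 0.21 to -2.45 ± 0.12, so TFR2 fell 1.47-fold more than TFRC (difference -0.56; two-sided exact permutation test over 70 splits, p = 0.0286, adjusted p = 0.0286 over 2 pairs of genes computed). That is the smallest p that 4 against 4 arrays can give. The other pair, CP and SLC40A1, was already known to be separated, so the adjustment added no correction. Pairs were chosen with earlier results of these data known. The value says that the changes were unequal, not how much of each receptor there was.

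STEAP3 encodes a ferrireductase of the transferrin cycle and is also listed among p53-induced genes. Its log2 levels were 8.46, 8.67, 8.65 and 8.48 in untreated cultures and 9.34, 9.24, 9.15 and 9.15 in treated ones. All treated arrays were higher. The rise was 1.58-fold (0.66 ± 0.075, adjusted p = 1.21e-05).

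SLC11A2 encodes DMT1, the transporter that carries ferrous iron out of the endosome and, in the intestine, into the cell. Untreated replicates 1 to 4 gave 8.96, 8.98, 9.17 and 8.97, and the cultures given H2O2 8.72, 8.72, 8.62 and 8.66. Untreated replicate 3 stood above the other 3 untreated arrays, and no treated array reached any of them. The fall was 1.27-fold (-0.34 ± 0.069, adjusted p = 0.00146), and it was -0.29 without that array. The gene has transcripts with and without an iron responsive element, which 1 probe set cannot tell apart.

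SLC40A1 encodes ferroportin, the only known iron exporter of mammalian cells. Its log2 levels were 9.66, 9.57, 9.54 and 9.60 in untreated cultures and 10.91, 10.90, 10.87 and 10.98 after H2O2. The arrays of each group lay close together and far from those of the other group. The difference, 1.32 ± 0.063 (95% interval 1.19 to 1.46, adjusted p = 2.81e-09), was the largest rise of the 9 genes and held rank 185 among all genes ordered by their rise. Ferroportin is also made by macrophages, and the macrophage and leukocyte markers were read for that reason. Of 8 such markers 2 rose (25%) and 0 fell, against 19.2% and 14.8% of all genes. CD68, a lysosomal protein gene, rose from 9.56 to 10.36 (0.80 ± 0.071, adjusted p = 1.16e-06), and CD14, a co-receptor for bacterial lipopolysaccharide, from 7.26 to 7.53 (0.27 ± 0.064). The mean log2 level of the 8 markers was 7.22 to 7.28 in untreated arrays and 7.26 to 7.39 in treated ones. PTPRC (4.23 and 4.09), CD163 (5.05 and 4.96) and CSF1R (6.30 and 6.25) lay below 6.88, the median level of all probe sets, in both groups. So did AIF1 (6.26 and 6.05) and MARCO (6.57 and 6.43). LYZ was high in both, at 12.90 and 12.83. The part of these markers in the rise of SLC40A1 was not tested.

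CP encodes ceruloplasmin, the copper-carrying plasma ferroxidase made by hepatocytes, which oxidises iron that ferroportin exports so that transferrin can bind it. Untreated replicates 1 to 4 stood at 11.91, 11.68, 12.24 and 12.08, with 10.49, 10.74, 10.18 and 10.10 in the treated ones. All treated arrays were lower, with a wider spread in both groups than for any other of the 9 genes except TFR2 in untreated cells. CP fell from 11.98 ± 0.24 to 10.38 ± 0.30 (-1.60 ± 0.14, 95% interval -1.91 to -1.30, adjusted p = 1.10e-06), which was rank 26 of all falls. Since CP fell and SLC40A1 rose, the log2 value of CP minus that of SLC40A1 on the same array moved from 2.39 ± 0.26 to -0.54 ± 0.32, a change of -2.93. No test is given for this value, because both genes were already known to be separated in opposite directions.

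**Figure D2:**
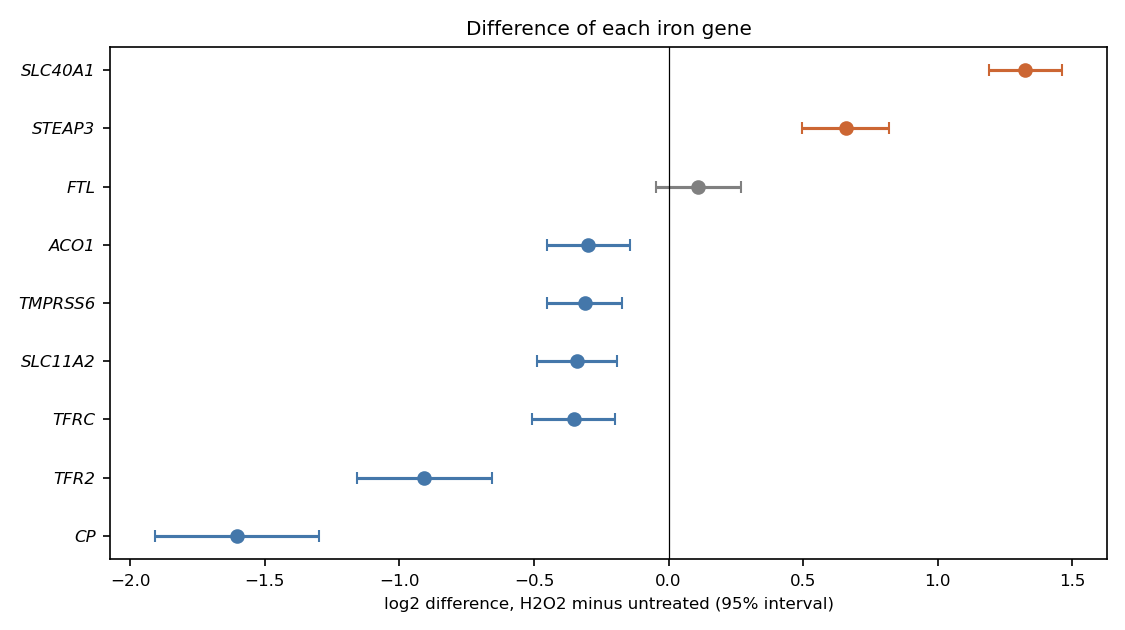
Log2 difference, H2O2 minus untreated (x axis), of each of the 9 iron genes (rows), with limma's 95% interval. Orange points rose, blue points fell and the grey point, FTL, did not pass; the points run from -1.60 for CP to 1.32 for SLC40A1.

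FTL encodes the light chain of ferritin, the shell in which cells store iron. Its log2 levels were 11.95, 12.02, 11.95 and 12.09 in untreated cultures and 12.22, 12.18, 11.97 and 12.08 in treated ones, so the groups overlapped. The difference was 0.11 ± 0.073 (95% interval -0.047 to 0.27, adjusted p = 0.284), and it passed at adjusted p = 0.0498 when limma's array weights were used. FTL has processed pseudogenes with near-identical sequence, which makes its value uncertain. The transcript holds the element printed above, which acts on translation, a step that these arrays do not measure.

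ACO1 encodes iron regulatory protein 1, which is a cytosolic aconitase when it holds an iron-sulfur cluster and binds iron responsive elements when it does not. ACO1 stood at 9.94, 9.92, 10.04 and 9.82 in untreated cultures and 9.52, 9.71, 9.63 and 9.67 in treated ones. The groups were separate, but the gap between them was smaller than the range within either group. The fall was 1.23-fold (-0.30 ± 0.072, adjusted p = 0.00498). The partner protein's gene, IREB2, was not analysed here, so these regulators could not be compared.

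TMPRSS6 encodes matriptase-2, the liver protease that cleaves hemojuvelin and so lowers hepcidin production. Its log2 levels were 7.36, 7.38, 7.28 and 7.31 in untreated cultures and 6.99, 7.00, 7.12 and 6.97 in treated ones. H2O2 replicate 3 was the highest of the treated arrays and still lay below all untreated ones. TMPRSS6 fell by 0.31 ± 0.065 (adjusted p = 0.00179). Its levels were close to the median of all probe sets, 6.88, and no background estimate was used here, so its fold is less surely known than those of the brighter genes.

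The falls of CP, TFR2 and TMPRSS6 stood beside changes in other hepatocyte products. Of 7 measured hepatocyte markers 4 fell (57.1%) and 1 rose (14.3%), against 14.8% and 19.2% of all genes. ALB, AFP, APOA1 and FGB fell by 0.24, 0.56, 0.53 and 0.71, and TTR rose by 0.26. APOB (-0.050) and SERPINA1 (0.029) did not pass. All 7 lay above the median level of all probe sets, and their mean log2 level was 11.96 to 12.00 in untreated arrays and 11.62 to 11.87 in treated ones. The part of this shift in the falls of the iron genes was not tested.

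CP and TFR2 also varied alike inside the groups, in part together with other genes. In untreated cells both were lowest in replicate 2, then replicate 1, then 4, and highest in replicate 3. In treated cells both were lowest in replicate 4, then 3, then 1, and highest in replicate 2. Untreated replicate 3 and H2O2 replicate 2 were also highest in their groups for TFRC, SLC11A2 and ACO1. This did not hold for SLC40A1, FTL, STEAP3 and TMPRSS6. In treated cells the transferrin gene TF and the hepatocyte marker FGB, which fell, followed the order of CP too. So did other listed genes. Among them were SLC39A14, which fell, HPX and the hepatocyte marker TTR, which rose, and HP, which did not pass. Of the 36 pairs that 9 genes form, CP with TFR2 was the only 1 with the same order of arrays in both groups. Of 18403 other genes, 39 (0.212%) shared the order of CP in both groups, and TFR2 was the only 1 of these in any list used here. How many genes would share an order by chance was not computed, and the pair was singled out after its values were seen.

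**Figure D3:**
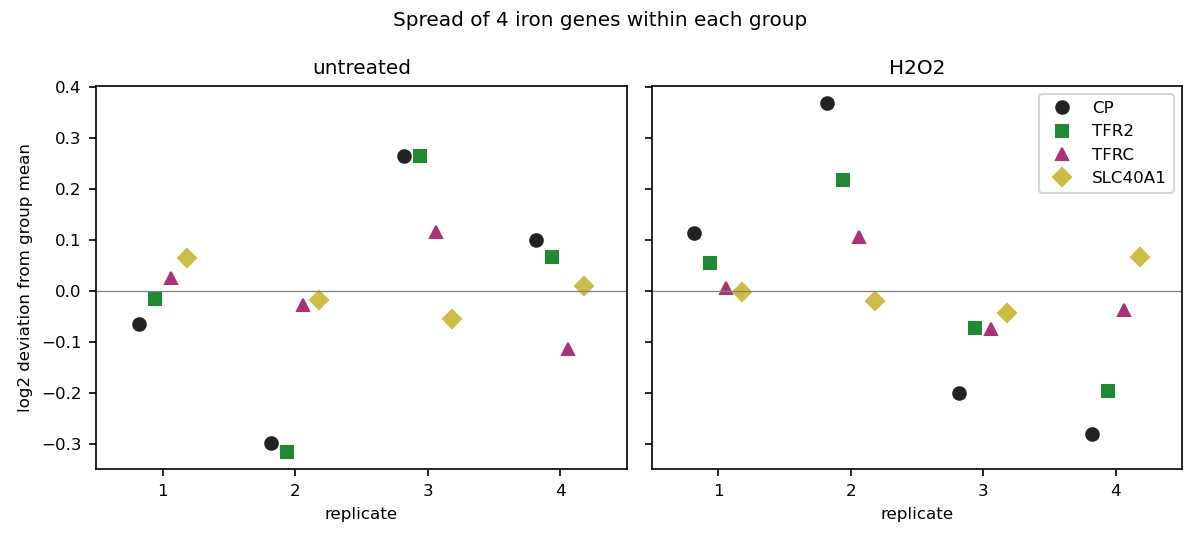
Deviation from the group mean, in log2 units (y axis), of CP, TFR2, TFRC and SLC40A1 in each replicate (x axis), untreated on the left and H2O2 on the right; points are shifted sideways to keep them apart. CP and TFR2 are lowest and highest in the same arrays of each group, and SLC40A1 stays within 0.067 of its mean. TFRC is highest in the same arrays as CP and TFR2.

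The genes most like SLC40A1 over the 8 arrays were the matrix protease gene MMP3 (Pearson's r = 0.999), CLTRN (r = 0.999) and MR1 (r = 0.999), whose log2 differences were 3.49, 2.05 and 2.20. Those most like CP were FREM1 (r = 0.998), SERPIND1, which encodes heparin cofactor II (r = 0.995), and AVPI1 (r = 0.995), with differences of -0.92, -0.39 and -0.46. These values describe likeness only. The arrays form 2 groups, so each r mostly reflects the gap between them.

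Promoters were read in the 250 bases before each start in RefSeq's table, which held 7 of the 10 listed genes in 11 windows. Both strands were searched for ACGTG, a form of the core of the hypoxia response element, and for TGACNNNGC, the core of the antioxidant response element. The E-box CACGTG, which contains ACGTG, was searched as well. Of all 35116 windows, 18.5%, 10.9% and 6.34% held them. ACGTG was found once in TFRC, at bases -88 to -84 from the start, and once in FTL, on the opposite strand at bases -11 to -7. The 3 motifs had no match in the windows of SLC40A1, STEAP3, SLC11A2, ACO1 and IREB2, which says only that these letters are not in these windows. GCGTG, another form of the hypoxia response element core, was not searched. It stands in windows of SLC11A2 and ACO1, and on the opposite strand in IREB2. The promoter of SLC40A1, the gene that rose most, is at chr2:189580787-189581036 and that of TFRC, which fell, at chr3:196082091-196082340, both on the minus strand of GRCh38.p14; capitals mark ACGTG.
SLC40A1: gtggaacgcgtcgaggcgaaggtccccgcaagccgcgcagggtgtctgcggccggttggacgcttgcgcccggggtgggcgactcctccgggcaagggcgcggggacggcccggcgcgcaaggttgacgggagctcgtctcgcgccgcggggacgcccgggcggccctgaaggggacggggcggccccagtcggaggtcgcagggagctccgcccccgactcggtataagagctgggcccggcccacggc
TFRC: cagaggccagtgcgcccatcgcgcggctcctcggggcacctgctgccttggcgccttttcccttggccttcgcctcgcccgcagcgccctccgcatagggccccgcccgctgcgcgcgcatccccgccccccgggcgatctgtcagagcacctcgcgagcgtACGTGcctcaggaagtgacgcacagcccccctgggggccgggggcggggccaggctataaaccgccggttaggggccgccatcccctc

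Other genes of the iron pathway were read from lists covering uptake, storage and export, hepcidin control, iron regulatory proteins, heme, and mitochondrial iron. Of 113 genes listed 101 had a value. Of these 29 rose (28.7%) and 15 fell (14.9%), against 19.2% and 14.8% of all genes. Their median difference was 0.0081, and that of all genes -0.022. Whether any list differed from all genes was not tested.

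Among 18 other genes of iron uptake and the transferrin cycle 3 rose (16.7%) and 2 fell (11.1%), with a median of 0.051. With array weights 5 rose and 3 fell. TF, which encodes transferrin itself, fell from 12.62 ± 0.072 to 11.72 ± 0.21, or 1.86-fold (adjusted p = 5.71e-06). SLC39A14, which encodes ZIP14, a transporter of iron not bound to transferrin, fell by 0.60 ± 0.079. The rises were smaller: CYBRD1, a ferric reductase gene, rose by 0.42 ± 0.062 and MCOLN1, the gene of a lysosomal cation channel that passes iron, by 0.32 ± 0.065. Transferrin and both of its receptors were lower at the transcript level, while the reductase gene STEAP3 was higher.

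For storage, iron chaperones and export, 3 of 11 measured genes rose (27.3%) and 2 fell (18.2%), with a median of -0.081. NCOA4, the receptor that delivers ferritin to autophagy, fell by 0.41 ± 0.066 (adjusted p = 0.000238). The copper pump gene ATP7A rose by 0.35 ± 0.082 and the copper chaperone gene ATOX1 by 0.27 ± 0.083. ATP7B, which encodes the pump that loads copper into ceruloplasmin, fell by 0.24 ± 0.074 (adjusted p = 0.0228). ATOX1 lost its call without untreated replicate 1 or H2O2 replicate 1, and when probe sets without a symbol were also tested. ATP7B lost its call without H2O2 replicate 4 or with the replicate number as a block, which left 1 fall in this list. FTH1, the ferritin heavy chain gene, was not analysed here.

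Of 20 measured genes of hepcidin and its control 7 rose (35%) and 2 fell (10%), with a median of 0.0059. HAMP, which encodes hepcidin, fell from 9.00 ± 0.21 to 8.55 ± 0.091 (-0.45 ± 0.096, adjusted p = 0.00210). The receptor genes of the bone morphogenetic protein pathway ACVR1 (0.87 ± 0.080) and BMPR2 (0.82 ± 0.092) rose most. SMAD4, which encodes the shared signal mediator of that pathway, fell by 0.25 ± 0.064. The interleukin-6 receptor gene IL6R rose by almost as much as BMPR2 (0.82 ± 0.087). HFE, the gene of a partner of both transferrin receptors, gave -0.093 ± 0.071 (adjusted p = 0.358) at levels of 6.57 and 6.48, under the median of all probe sets.

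The list of iron regulatory protein control and of further transcripts with an iron responsive element had 8 measured genes. Of these 2 rose (25%) and 0 fell (median 0.021). APP, the amyloid precursor gene, rose by 0.38 ± 0.074, and CDC42BPA, a kinase gene, by 0.31 ± 0.094 (adjusted p = 0.0208). CDC42BPA lost its call without untreated replicate 1, 2 or 4 or H2O2 replicate 4. It also lost it when probe sets without a symbol were tested too. Each of these settings left 1 rise. Without untreated replicate 2 or H2O2 replicate 3 the list had 1 fall. It also had 1 fall with the replicate number as a block, quantile normalization, array weights, or robust moderation with a mean-variance trend. FBXL5, the ubiquitin ligase subunit that senses iron and removes iron regulatory proteins, gave 0.058 ± 0.070 (adjusted p = 0.581).

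Among 21 measured heme genes 9 rose (42.9%) and 4 fell (19.0%), with a median of 0.19. SLC48A1, which encodes the heme transporter HRG1, rose by 0.86 ± 0.075 (adjusted p = 9.94e-07), and HPX, which encodes the plasma heme carrier hemopexin, by 0.74 ± 0.13. CPOX, an enzyme gene of heme synthesis, fell by 0.79 ± 0.089 and FLVCR1, which encodes a membrane transporter linked to heme export, by 0.70 ± 0.095. HMOX1, the inducible heme oxygenase gene, gave 0.016 ± 0.083 (adjusted p = 0.911), and this value turned below 0 in some alternatives.

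Genes of mitochondrial iron import and iron-sulfur cluster assembly included 5 rises (21.7%) and 5 falls (21.7%) among 23 measured (median -0.063). The rises numbered 3 without H2O2 replicate 1, and the falls 3 without untreated replicate 1 or H2O2 replicate 4. ISCU, the scaffold on which clusters are built, rose by 0.57 ± 0.065 (adjusted p = 1.08e-05) and the ferredoxin gene FDX2 by 0.36 ± 0.082. GLRX5, a glutaredoxin that passes clusters on, fell by 0.46 ± 0.078 and ABCB10, a mitochondrial transporter gene, by 0.36 ± 0.070. GLRX5 has 2 probe sets, of which the one with the higher mean was read. Where that probe set lies in the genome was not checked. The mean of both probe sets gave -0.35. The difference of GLRX5 ranged from -0.51 to -0.35 over the main fit and the alternatives.

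**Figure D4:**
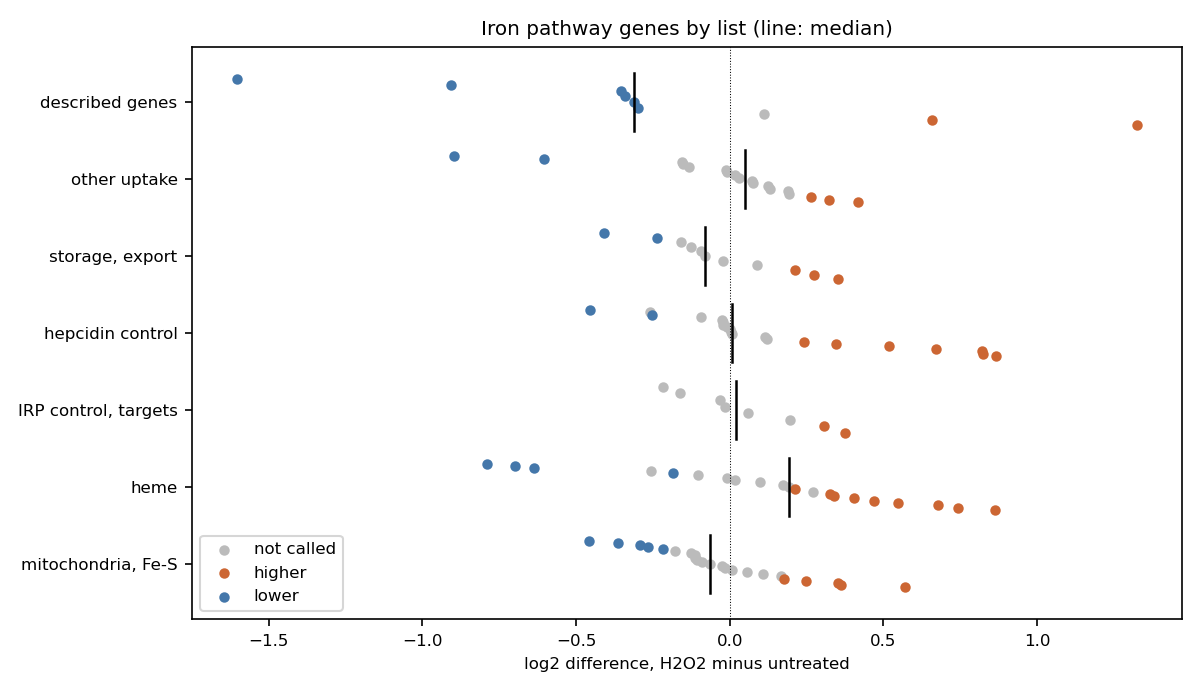
Log2 difference, H2O2 minus untreated (x axis), of every measured gene of the 9 described genes and the 6 wider lists (rows), 1 point per gene, coloured by its call at an adjusted p under 0.05, with a black line at each list's median. The described genes reach from -1.60 to 1.32 and the wider lists from -0.90 to 0.87.

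Array medians lay between 6.85 and 6.93. Pearson's r across probe sets, which are not independent replicates, was 0.990 to 0.996 within groups and 0.979 to 0.985 between them. Erythroid markers (0 of 3 measured called), endothelial markers (0 rose and 1 fell of 8) and stellate cell markers (1 rose and 1 fell of 8) completed the lists read. Across all genes 34% were called.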

How the data were processed

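The table analysed holds the deposited log2 expression values, 1 for each probe set on each array. Summarization, background correction and normalization are not given in the sources used here; per the submitters' processing notes limma was used, with no role stated. Of 32321 probe sets 19158 have 1 gene symbol, 1388 several and 11775 none; 637 genes had several probe sets, and the one with the highest mean was taken. Entrez identifiers of 19128 probe sets were found in RefSeq's GRCh38.p14 table, which changed 0 symbols. H2O2 was compared with untreated by limma 3.58.1 (R 4.3.3): 1 mean per group, empirical Bayes, Benjamini-Hochberg over 18404 genes, calls at an adjusted p under 0.05; the fit was tested on simulated data. The difference in change between TFR2 and TFRC used exact permutation (Python 3.11.15, numpy 2.4.6). Genes, lists and pairs were chosen with earlier results of these data known. Named were all described genes, up to 2 largest called rises and falls per list, 6 further genes (FTH1, HAMP, TF, HFE, FBXL5, HMOX1), the 3 genes most like the top rise and fall, and markers. HP and IL6R are mentioned for comparison only, outside the checks of named genes reported below. For arrays, their number limits the precision. Of the 3 pairs planned, ACO1 with IREB2 was not run. Alternatives: 8 other settings and leaving out each array.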

Additional observations from a re-analysis of the deposited data

Results flagged for a closer look

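In each group of 4 arrays the highest and lowest value of 34 genes, the 9 iron genes and 25 named genes of the wider lists, were checked for a gap to the others above Dixon's 95% critical value, in 68 groups; chance flags about 1 in 20 groups. SLC11A2 was at 9.17 in untreated replicate 3, against 8.96 to 8.98 in the other 3. TMPRSS6 was at 7.12 in H2O2 replicate 3, against 6.97 to 7.00, and without it the difference was -0.34. BMPR2 was at 8.99 in untreated replicate 3, against 8.58 to 8.60, and without it the rise was 0.92. SMAD4 was at 10.34 in untreated replicate 3, against 10.20 to 10.21, and without it the log2 difference was -0.22. All 4 genes kept their call without these arrays.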

How the results depend on the processing

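The 9 iron genes kept the sign of their difference in all 16 alternatives, and of 144 values 143 stayed on the same side of the threshold; the exception was FTL with array weights (0.16, adjusted p = 0.0498). The counts of 2 higher and 6 lower held in every fit that left out 1 array. For the other 25 named genes 10 of 398 values lost their call, of ATOX1 (3), ATP7B (2) and CDC42BPA (5), with adjusted p up to 0.0729, and 0 turned direction while called; HMOX1, never called, ranged from -0.044 to 0.098. The wider lists had 24 to 30 rises and 11 to 16 falls when 1 array was left out. Over all genes these fits gave 3110 to 3686 rises and 2228 to 3069 falls, and array weights gave 4111 falls in place of 2732; the cause was not tested.

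Same-numbered arrays of the 2 groups were not treated as pairs, because the labels state no pairing. Their deviations from the group means correlated at -0.068, 0.060, -0.25 and 0.094. These values cannot decide whether such arrays shared a culture or a day. With the replicate number as a block the iron genes still gave 2 rises and 6 falls. The pair differences under the replicate block were -0.56 (TFR2 minus TFRC) and -2.93 (CP minus SLC40A1), where 4 pairs cannot give a p below 0.125. Leaving out 1 array they ranged from -0.65 to -0.50 and from -3.06 to -2.81, where 3 against 4 arrays cannot give an exact permutation p below 0.0571. No background signal was used, so levels near or below the median of all probe sets limit how exactly a fold is known.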
